A study of Mus musculus with 4 samples.

Results

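Voltage-gated potassium (Kv) channels are tetramers that open when the membrane depolarises and let potassium leave the cell, which repolarises the action potential and sets how often and how regularly a neuron fires. The pore is built from alpha subunits, each encoded by its own gene, and subunits of the same subfamily can mix within a channel. In the olfactory bulb, granule and periglomerular interneurons and the mitral and tufted projection neurons are known to use different sets of these channels, among them A-type currents in granule cells and a Kcna3-dependent current in mitral cells. The genes described here were chosen by symbol alone: every row of the deposited table whose symbol is Kcna, Kcnb, Kcnc, Kcnd, Kcnf, Kcng, Kcnh, Kcnq, Kcns or Kcnv followed by a number. The rule matched 41 of 20032 rows. Described here are 36 channel genes and, kept apart from them, the noncoding RNA Kcnq1ot1, which is antisense to Kcnq1. The rule itself uses no measured value, but it was set with earlier results of these data known.

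Total RNA came from olfactory bulbs of mice at postnatal day 11 whose strain background mixed C57BL/6J, 129S6 and CD1. The controls were 2 samples from littermates without Cre. The mutants, called DCKO for double conditional knockout, were 2 samples with Dlx5/6-CIE, Sp8 Flox/Flox and Sp9 Flox/Flox. Dlx5/6-CIE is a Cre transgene driven by the Dlx5/6 enhancer, which acts in precursors of GABAergic neurons, so the 2 zinc finger factors Sp8 and Sp9 are removed within the interneuron lineage. The question addressed is how bulb expression differs when both are removed there. The labels do not state whether the controls carried the floxed alleles, nor whether replicates came from separate animals, so each p-value reflects only how far these samples differ, which may be technical.

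Expression is given as FPKM, the number of sequenced fragments of a gene divided by its transcript length and by the size of the library, a level that allows different genes to be compared. Changes are DCKO minus control on the log2(FPKM + 1) scale, which understates the change of low genes, and a gene was called when its limma adjusted p over all 13434 tested genes was below 0.05. The deposited scaled fragment counts summed to between 14632502 and 15400982 per library. Sp8 was at 32.0 and 26.7 FPKM in control bulbs and 1.68 and 2.03 in mutant bulbs, and Sp9 at 24.0 and 30.7 against 0.0674 and 0.236, so the labels held for both targeted genes. All 10 listed interneuron and granule cell markers fell, with a summed level of 879 and 850 FPKM in control bulbs and 100.1 and 160 in mutant bulbs. Among all tested genes 14.3% were called lower and 13.0% higher. Of 9 mitral and tufted cell markers 8 rose (summed 932 and 997 against 1852 and 1583 FPKM), as did 5 of 6 astrocyte markers (481 and 472 against 945 and 903 FPKM) and 3 of 6 microglia markers (55.4 and 53.4 against 66.1 and 70.5 FPKM). In bulk RNA, fewer cells of a type and less RNA per cell cannot be told apart, and the part of these shifts in the channel results was not tested. Control replicate 1 stood apart from control replicate 2 in markers of tissue beside the bulb, with 298 against 92.1 FPKM for 5 olfactory sensory neuron genes (186 and 144 in DCKO) and 143 against 18.99 FPKM for 4 bone genes (28.2 and 41.1 in DCKO). Values without control replicate 1 are given wherever they end a call. The 6 oligodendrocyte markers summed to 552 and 739 FPKM in control bulbs and 948 and 536 in DCKO replicates 1 and 2. None of them passed, and the part of this difference between DCKO libraries in the channel values was not tested.

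Of the 36 channel genes, 27 reached a mean of 1 FPKM over the 4 libraries and were tested. In DCKO 16 of them fell and 4 rose, against a background of 14.3% of all tested genes called lower and 13.0% called higher (27.3% in either direction). The 16 and the median below include Kcnb2 (0.604 and 0.597 FPKM in DCKO) and Kcng2 (0.118 and 0.137). Both passed the filter on mean level through the controls alone. Kcnh3 fell most on the log2 scale and Kcng1 rose most. The median change of the 27 was -0.64 on the log2 scale, beside -0.02 over all tested genes, and with only genes of a mean of at least 5 FPKM it was -0.094. Of the 12 channel genes with that higher mean, 6 fell and 4 rose. The mean takes in the DCKO libraries, so a fall itself can carry a gene under that filter. Kcna4, Kcnc2 and Kcnh5 averaged 5.45, 5.37 and 6.24 FPKM in control bulbs and were left out by it. The fall in mean FPKM of the 16 ran from 1.51-fold to 19.3-fold with a median of 2.54-fold, and the rise of the 4 from 1.51-fold to 4.41-fold. The 2 DCKO values lay below both control values for 18 of the 27 genes and above both for 6, where 37.6% and 33.9% of all tested genes did so (71.5% in either direction). The same 14 calls, 12 lower and 2 higher, were kept when each of the 4 libraries was left out in turn. The other 6, Kcna3, Kcnc4, Kcnd2, Kcnh6, Kcnh7 and Kcnv1, lost their call without at least 1 library and are marked below. In fits with a lone library of a genotype, that library is assumed to vary like the other pair.

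**Figure D1:**
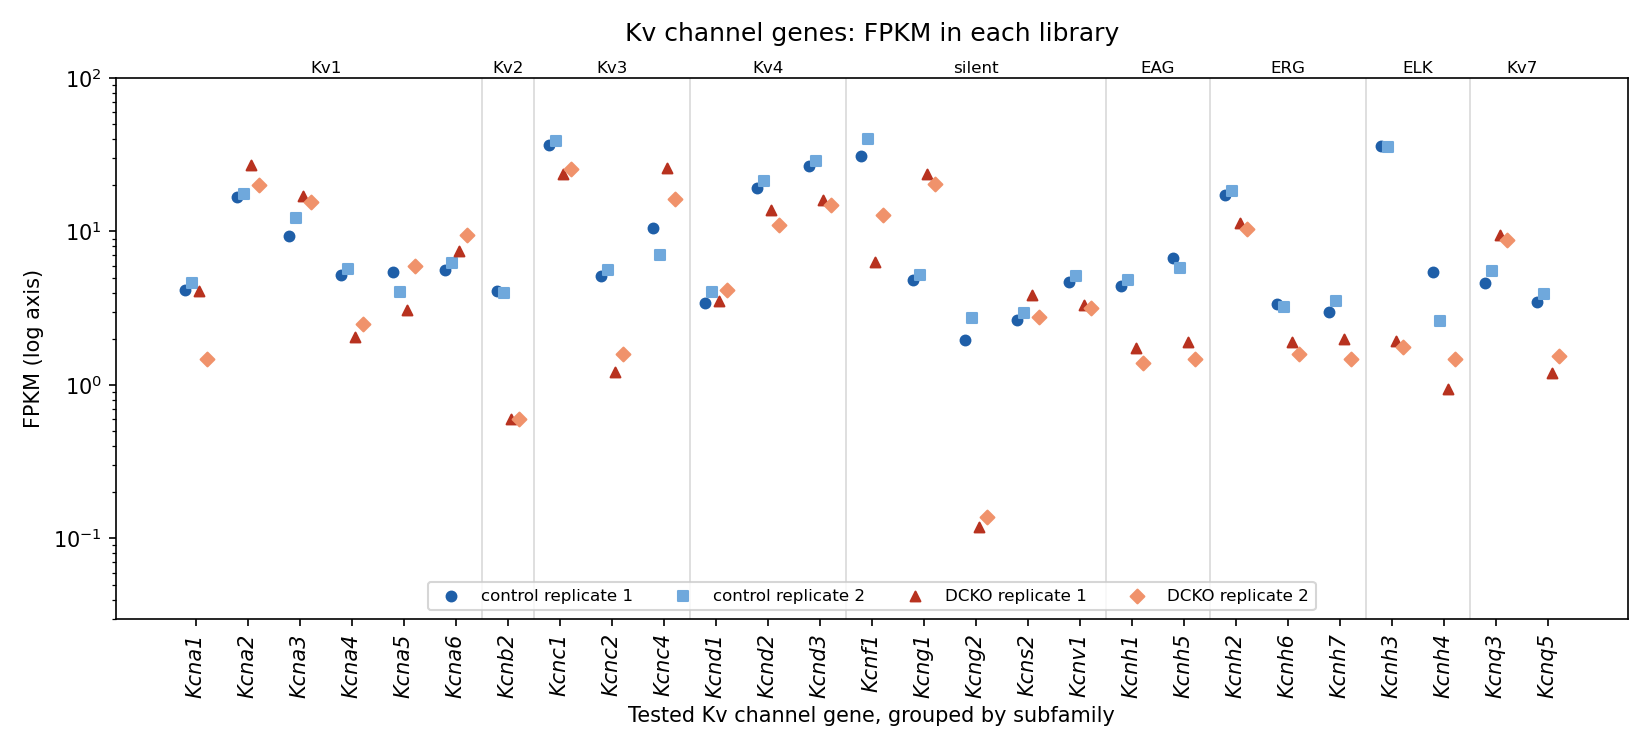
FPKM (log axis) of the 27 tested Kv channel genes in each of the 4 libraries, grouped by subfamily; each point is 1 library. The DCKO points of Kcnh3 (1.92 and 1.78 FPKM) and Kcng2 (0.118 and 0.137 FPKM) lie more than a decade below the control points, and those of Kcng1 (23.8 and 20.5 FPKM) lie above them.

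The order of levels differed between genotypes among the most abundant of these genes. In both controls Kcnc1, Kcnh3 and Kcnf1 took the first 3 ranks of the 36. In DCKO replicates 1 and 2 Kcnc1 stayed near the top at ranks 4 and 1, while Kcnh3 ranked 19 and 18 and Kcnf1 ranked 11 and 7. There Kcna2 ranked 1 and 3, Kcnc4 ranked 2 and 4 and Kcng1 ranked 3 and 2. FPKM were also summed over the members of 6 subfamilies. The Kv1 genes summed to 46.5 and 50.2 FPKM in control libraries and 60.7 and 54.9 in mutant libraries. The other 5 sums were lower in both mutant libraries, by 1.29-fold for the silent subunits up to 11.2-fold for the ELK genes. Kcnh3 alone gave 36.0 and 35.5 of the 42.6 and 38.9 FPKM to which the ELK genes summed in control bulbs. For sums of 2 libraries against 2, the exact permutation p (two-sided) cannot go below 0.333, which was the value for each of the 6.

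**Figure D2:**
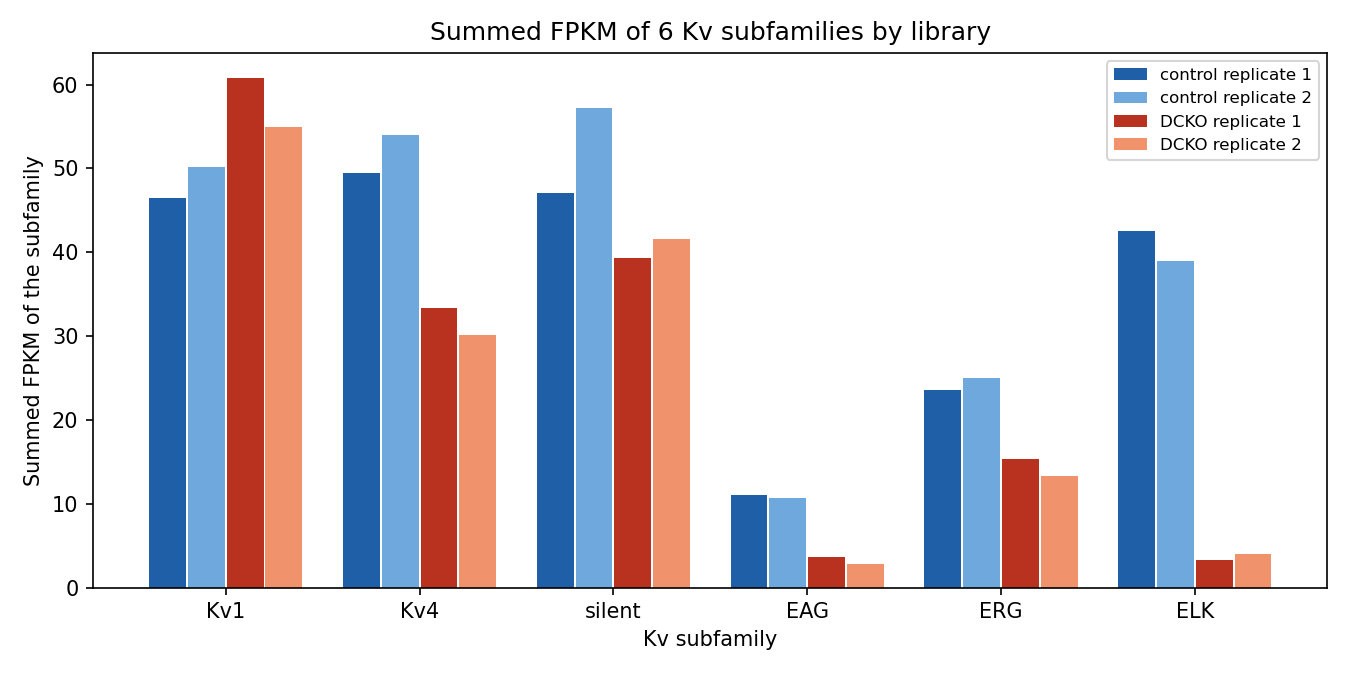
Summed FPKM of 6 Kv subfamilies in the 4 libraries (bars start at 0; 1 bar per library). The ELK sum was 42.6 and 38.9 FPKM in control bulbs and 3.31 and 3.95 in mutant bulbs, and the Kv1 bars are the only ones that are higher in both DCKO libraries.

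Kv1 channels (Kcna) sit on axons and near the site of spike initiation and open close to the resting potential. Of 6 tested genes 1 rose and 1 fell, near the share of all tested genes (13.0% higher and 14.3% lower). Kcna2, the most abundant of them, was at 16.8 and 17.4 FPKM in control bulbs and 27.0 and 19.9 in mutant bulbs. The DCKO values lay above the controls, but the change did not pass (log2 change 0.42, SE 0.15, limma adjusted p = 0.0955), and without DCKO replicate 2 it did (adjusted p = 0.0202). Kcna3, known from mitral cells and from immune cells including microglia, was at 9.31 and 12.2 FPKM in control bulbs and 17.0 and 15.5 in mutant bulbs. It rose by 0.56 on the log2 scale (SE 0.14, limma adjusted p = 0.0402). The groups did not overlap, as for 71.5% of all tested genes. The Kcna3 call did not hold without control replicate 1 (adjusted p = 0.102), DCKO replicate 1 (0.136) or DCKO replicate 2 (0.0855). Kcna4, an inactivating A-type subunit, went the other way, from 5.22 and 5.69 FPKM to 2.04 and 2.51, and fell 2.40-fold (log2 change -0.98, SE 0.12, adjusted p = 0.00799). Kcna6 was at 5.60 and 6.24 FPKM in control bulbs and 7.47 and 9.54 in mutant bulbs and did not pass (0.45, adjusted p = 0.0626). It passed without DCKO replicate 1 (adjusted p = 0.0413), as it did after upper quartile scaling (0.0454), quantile normalization (0.0461), on scaled counts (0.0337) and with the replicate block (0.0483). Kcna1, a close partner of Kcna2 in axonal channels, differed between the mutants. It was at 4.14 and 4.59 FPKM in the controls, 4.11 in DCKO replicate 1 and 1.47 in DCKO replicate 2 (log2 change -0.60, adjusted p = 0.252), and passed as lower without DCKO replicate 1 (adjusted p = 0.0239). Kcna5 overlapped between groups, at 5.41 and 4.03 against 3.06 and 5.92 FPKM.

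Kv2 channels (Kcnb) carry the delayed rectifier current of cell bodies and proximal dendrites. Kcnb2 (chromosome 1, 15287254 to 15723750, GRCm38, + strand) was at 4.10 and 3.96 FPKM in control bulbs and 0.604 and 0.597 in mutant bulbs. It fell 6.72-fold (log2 change -1.65, 95% confidence interval -1.96 to -1.35, limma adjusted p = 0.00241). Replicates of Kcnb2 lay close together in each genotype.

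The silent subunits (Kcnf, Kcng, Kcns and Kcnv) form no channel alone and change the gating of Kv2 channels when they join them. Of 5 tested genes 3 fell and 1 rose, beside 14.3% and 13.0% of all tested genes. The most abundant member was a different gene in each genotype. Kcnf1 (chromosome 12, 17172100 to 17176888, GRCm38, - strand, a single exon) was at 31.0 and 39.8 FPKM in control bulbs and 6.36 and 12.8 in mutant bulbs. It fell 3.69-fold (log2 change -1.84, SE 0.32, limma adjusted p = 0.0176). The 2 DCKO libraries were far apart, and both lay well below the controls. Kcng1 (chromosome 2, 168260117 to 168281736, - strand) was at 4.85 and 5.19 FPKM in control bulbs and 23.8 and 20.5 in mutant bulbs. It rose 4.41-fold (log2 change 1.94, 95% confidence interval 1.69 to 2.19, adjusted p = 0.00114), and its highest adjusted p in any alternative was 0.00887. Kcng1 made up 10.3% and 9.06% of the summed silent level in control libraries, against 60.5% and 49.3% in DCKO, while Kcnf1 made up 65.9% and 69.4% against 16.2% and 30.8%. Kcng2 was at 1.97 and 2.75 FPKM in control bulbs and 0.118 and 0.137 in mutant bulbs, an 18.5-fold lower mean (log2 change -1.56, SE 0.18, adjusted p = 0.00715). Behind the Kcng2 values stand scaled counts of 64.5 and 87.8 in control bulbs and 3.91 and 4.54 in mutant bulbs, so its fold rests on few fragments. Kcng2 and Kcnb2 passed the filter on mean level through the controls alone. Kcnv1 had a smaller fall, from 4.66 and 5.12 FPKM to 3.30 and 3.18 (log2 change -0.47, adjusted p = 0.0270). Its call did not hold without any 1 of the libraries (adjusted p = 0.0775 and 0.151 without control replicates 1 and 2, 0.0616 and 0.0619 without DCKO replicates 1 and 2). Kcns2 did not pass, at 2.64 and 2.96 against 3.85 and 2.76 FPKM (log2 change 0.17, 95% confidence interval -0.24 to 0.58).

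Kv3 channels (Kcnc) open at strongly depolarised potentials and close fast, which lets neurons fire at high rates. Kcnc1 and Kcnc2 fell, and Kcnc4 rose. Kcnc1 was at 36.9 and 39.0 FPKM in control bulbs and 23.6 and 25.5 in mutant bulbs (log2 change -0.61, SE 0.07, limma adjusted p = 0.00804). Kcnc2, which forms channels of fast-spiking interneurons, was at 5.11 and 5.64 FPKM in control bulbs and 1.22 and 1.59 in mutant bulbs. It fell 3.83-fold (log2 change -1.41, SE 0.13, adjusted p = 0.00411), against 1.54-fold for Kcnc1. Kcnc4, the rapidly inactivating member (chromosome 3, 107438303 to 107459552, - strand), was at 10.5 and 6.996 FPKM in control bulbs and 25.7 and 16.2 in mutant bulbs. It rose 2.39-fold (log2 change 1.16, SE 0.27, adjusted p = 0.0370), with a wide spread in both genotypes. The Kcnc4 call did not hold without DCKO replicate 1 (adjusted p = 0.104) or control replicate 2 (0.0576). The level of Kcnc4 was 0.285 and 0.179 times that of Kcnc1 in control libraries and 1.09 and 0.635 times in mutant libraries.

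Kv4 channels (Kcnd) carry the A-type current of cell bodies and dendrites, which delays the first spike and limits spikes that travel back into the dendrite. Of 3 genes 2 fell, beside 14.3% of all tested genes. Kcnd3 was at 26.8 and 28.6 FPKM in control bulbs and 16.0 and 14.9 in mutant bulbs, a 1.79-fold fall (log2 change -0.80, SE 0.08, limma adjusted p = 0.00456). Kcnd2 was at 19.2 and 21.3 FPKM in control bulbs and 13.8 and 11.1 in mutant bulbs (-0.67, adjusted p = 0.0206), a call that did not hold without control replicate 2 (adjusted p = 0.0570). For both genes the groups did not overlap, as for 71.5% of all tested genes. Kcnd1 showed no detectable change, at 3.43 and 4.05 against 3.51 and 4.13 FPKM (log2 change 0.02, 95% confidence interval -0.30 to 0.35).

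The Kcnh genes encode the EAG, ERG and ELK channels, which share a cyclic nucleotide-binding homology domain. Of the 7 tested genes 6 fell and none rose, beside 14.3% of all tested genes called lower and 13.0% called higher. The ELK gene Kcnh3 (chromosome 15, 99224861 to 99242817, GRCm38, + strand, protein-coding) was at 36.0 and 35.5 FPKM in control bulbs and 1.92 and 1.78 in mutant bulbs. Its mean was 19.3-fold lower (log2 change -3.69, SE 0.07, 95% confidence interval -3.88 to -3.50, limma adjusted p = 0.000268). The scaled counts behind Kcnh3 were 1556 and 1468 in control bulbs and 83.0 and 78.1 in mutant bulbs, and its highest adjusted p in any alternative was 0.00565. Kcnh3 is known as a forebrain channel that restrains neuronal excitability. It made up 46.6% and 47.6% of the summed Kcnh level in the controls and 8.62% and 8.81% in DCKO. Its relative Kcnh4 was at 5.47 and 2.62 FPKM in control bulbs and 0.935 and 1.49 in mutant bulbs. The groups of Kcnh4 did not overlap, but control replicate 1 stood far above control replicate 2, and the change narrowly missed the threshold (log2 change -1.14, adjusted p = 0.0526). Without control replicate 2 it passed (adjusted p = 0.00545), and it passed too with a pseudocount of 0.1 (0.0453), median-of-ratios scaling (0.0493), quantile normalization (0.0372) and scaled counts (0.0379).

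Both EAG genes fell. Kcnh1 was at 4.39 and 4.83 FPKM in control bulbs and 1.73 and 1.38 in mutant bulbs (log2 change -1.14, SE 0.12, limma adjusted p = 0.00649). Kcnh5 was at 6.67 and 5.80 FPKM in control bulbs and 1.91 and 1.47 in mutant bulbs (-1.43, SE 0.13, adjusted p = 0.00434). These are falls of 2.96-fold and 3.69-fold, and no test compared them. The 3 ERG genes, which carry a slowly deactivating current best known from the heart, fell by less than 2-fold in mean FPKM. Kcnh2, the most abundant, was at 17.3 and 18.3 FPKM in control bulbs and 11.4 and 10.3 in mutant bulbs (-0.66, adjusted p = 0.00853). Kcnh6 was at 3.36 and 3.21 FPKM in control bulbs and 1.91 and 1.58 in mutant bulbs (-0.64, adjusted p = 0.0218). The Kcnh6 call did not hold without control replicate 1 (adjusted p = 0.0660) or 2 (0.05995). Kcnh7 was at 2.98 and 3.51 FPKM in control bulbs and 1.98 and 1.47 in mutant bulbs (-0.64, adjusted p = 0.0355), a call that did not hold without DCKO replicate 2 (adjusted p = 0.0791) or control replicate 2 (0.116).

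**Figure D3:**
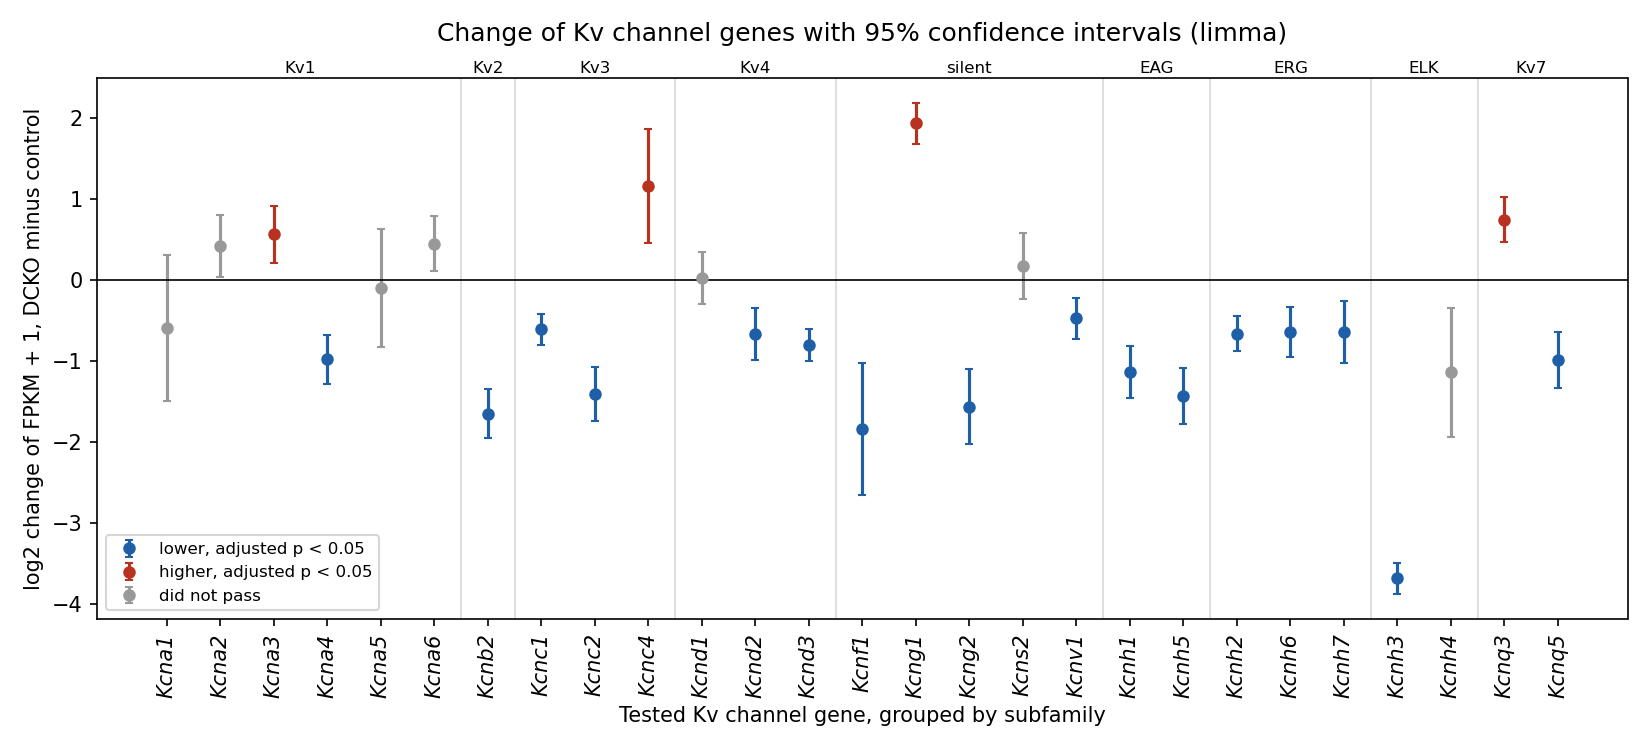
Change of each tested Kv channel gene, DCKO minus control, on the log2(FPKM + 1) scale with 95% confidence intervals from limma (2 libraries per genotype); blue and red points passed an adjusted p of 0.05. Kcnh3 stands apart at -3.69 and Kcng1 at 1.94.

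Kv7 channels (Kcnq) carry the M-current, a slow current that muscarinic receptors suppress. Kcnq3 rose and Kcnq5 fell. Kcnq3, a main subunit of the neuronal M-current (chromosome 15, 65986387 to 66286642, - strand), was at 4.59 and 5.52 FPKM in control bulbs and 9.42 and 8.83 in mutant bulbs. It rose 1.81-fold (log2 change 0.75, SE 0.11, limma adjusted p = 0.0120), and its call was kept in each alternative (highest adjusted p = 0.0499). Kcnq5, another M-current subunit, was at 3.48 and 3.90 FPKM in control bulbs and 1.20 and 1.55 in mutant bulbs. It fell 2.69-fold (log2 change -0.99, SE 0.13, adjusted p = 0.0102). For both genes every mutant value lay on one side of the control values, as for 71.5% of all tested genes.

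The 9 channel genes under the filter were Kcna7, Kcna10, Kcng3, Kcng4, Kcnh8, Kcnq1, Kcns1, Kcns3 and Kcnv2. Their highest single value was 1.79 FPKM, for Kcns1 in DCKO replicate 2. Kcns1, a silent subunit, lay just under the filter with a mean of 0.890 FPKM and was at 0.365 and 0.468 in control bulbs and 0.935 and 1.79 in mutant bulbs. Kcnh8, an ELK gene with a mean of 0.773 FPKM, was at 1.13 and 0.816 in control bulbs and 0.457 and 0.686 in mutant bulbs. Just inside the filter, Kcng2 had a mean of 1.24 FPKM and Kcnb2 of 2.32 FPKM. The heart and epithelial channel gene Kcnq1 was at 0.522 to 0.766 FPKM in all 4 libraries. Kcnv2, known from photoreceptors, was listed at 0 in 3 libraries. The noncoding Kcnq1ot1 was at 0.158 and 0.162 FPKM in control bulbs and 0.103 and 0.109 in mutant bulbs and was not tested.

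Channel function also depends on auxiliary subunits, which set where the alpha subunits go and how they gate. Of the 14 such genes listed, 11 passed the filter, and 6 fell and 3 rose, against the same background of 14.3% and 13.0%. Their median change was -0.997 on the log2 scale. The Kv4 partners Dpp10 and Dpp6, membrane proteins that speed A-type gating, both fell. Dpp10 was at 25.4 and 23.3 FPKM in control bulbs and 6.44 and 6.51 in mutant bulbs (log2 change -1.76, limma adjusted p = 0.000893). Dpp6 was at 51.6 and 56.3 FPKM in control bulbs and 27.5 and 25.5 in mutant bulbs (-0.997, adjusted p = 0.00300). The KChIP calcium sensors, which bind the same Kv4 channels, split. Kcnip1 was at 21.4 and 24.0 FPKM in control bulbs and 7.30 and 5.32 in mutant bulbs (-1.71, adjusted p = 0.00396), and Kcnip2 at 56.0 and 58.8 against 20.2 and 32.2 (-1.14, adjusted p = 0.0222, and 0.0552 with no filter on low values). Kcnip4 rose from 9.54 and 8.47 FPKM to 18.8 and 20.9 (log2 change 1.06, adjusted p = 0.00396). Kcnip3 rose from 17.9996 and 18.3 FPKM to 25.6 and 39.1 (0.77, adjusted p = 0.0464), with the 2 DCKO libraries far apart. The Kcnip3 call did not hold without control replicate 1 (adjusted p = 0.0681) or 2 (0.0694).

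Of the beta subunits of Kv1 channels, Kcnab3 fell from 23.2 and 27.2 FPKM in control bulbs to 6.32 and 6.29 in mutant bulbs (log2 change -1.84, limma adjusted p = 0.00116). Kcnab2, the most abundant of them, showed no detectable change, at 39.8 and 38.8 against 42.1 and 37.1 FPKM (0.01, adjusted p = 0.957). Kcnab1 rose from 3.02 and 3.09 FPKM to 5.22 and 4.15 (0.48, adjusted p = 0.0483), a call that did not hold without control replicate 1 (adjusted p = 0.141), control replicate 2 (0.134) or DCKO replicate 1 (0.102). Amigo1, an adhesion protein that joins Kv2 channels, fell from 18.9 and 21.3 FPKM to 8.21 and 8.24 (-1.19, adjusted p = 0.00241). The Kcne5 gene, listed as Kcne1l, did not pass (14.1 and 16.1 against 16.7 and 21.9 FPKM), and Kcne2, Kcne3 and Kcne4 lay under the filter with no value above 1.19 FPKM.

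**Figure D4:**
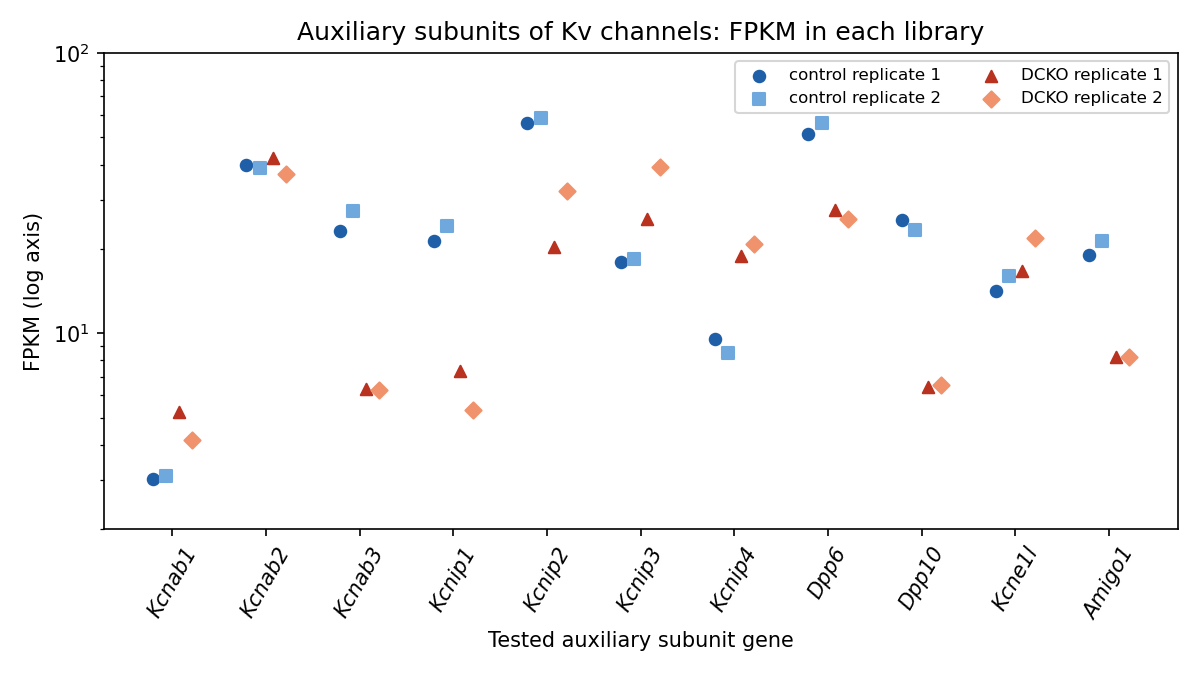
FPKM (log axis) of the 11 tested auxiliary subunit genes in each library; each point is 1 library. The DCKO points of Kcnab3, Kcnip1, Dpp10 and Amigo1 lie well below the controls (Amigo1 at 8.21 and 8.24 against 18.9 and 21.3 FPKM), those of Kcnip4 lie above them, and those of Kcnab2 fall on both sides.

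Proteins of the Sp family are known to bind GC boxes, so the upstream sequences of channel genes were read for GGGCGG on either strand. RefSeq promoter windows (GRCm38.p6) matched 25 of the 36 channel genes by symbol, and the 250 bases before each start site were searched. No window matched Kcnb2, Kcng2, Kcnh3 and Kcnv1, which fell, or Kcng1 and Kcnq3, which rose, so several of the largest changes are not covered. A GC box was present for 9 of 12 matched genes that fell and both that rose (Kcna3 and Kcnc4). The same held for 1 of 4 that did not pass and 4 of 7 under the filter. It was present in 32.7% of all upstream windows of this length and in 57.5% of those of tested genes, or in 64.9% of tested genes with any window. Counted by gene over all called genes, the share was 65.0% of genes that fell and 68.6% of genes that rose. A match is a description of the letters and no evidence of binding. The windows of a gene that fell with several matches, a gene that rose with matches, and a gene that fell with none are shown 5′ to 3′ on the gene's strand, with GC boxes of either strand in capitals. The Kcnc1 window is chr7:46396218-46396467 (+), the Kcna3 window chr3:107035912-107036161 (+) and the Kcnf1 window chr12:17176889-17177138 (-).
Kcnc1: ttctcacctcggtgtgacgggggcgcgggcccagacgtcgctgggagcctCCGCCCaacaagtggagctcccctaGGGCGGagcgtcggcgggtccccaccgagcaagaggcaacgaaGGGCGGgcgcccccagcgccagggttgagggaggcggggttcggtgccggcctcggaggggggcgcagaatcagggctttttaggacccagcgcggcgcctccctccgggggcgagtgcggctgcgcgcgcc
Kcna3: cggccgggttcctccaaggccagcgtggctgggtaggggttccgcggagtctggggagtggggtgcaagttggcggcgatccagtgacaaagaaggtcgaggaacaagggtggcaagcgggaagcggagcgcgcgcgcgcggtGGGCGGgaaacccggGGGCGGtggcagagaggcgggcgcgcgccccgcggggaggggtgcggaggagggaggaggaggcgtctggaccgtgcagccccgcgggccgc
Kcnf1: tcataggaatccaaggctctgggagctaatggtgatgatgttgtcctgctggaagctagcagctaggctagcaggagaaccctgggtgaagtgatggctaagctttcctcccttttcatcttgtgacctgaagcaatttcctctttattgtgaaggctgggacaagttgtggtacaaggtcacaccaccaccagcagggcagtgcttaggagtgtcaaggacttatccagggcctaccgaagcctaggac
The Kcnc1 window holds 3 matches and is 74.4% G or C, the Kcna3 window holds 2 and is likewise 74.4% G or C, and the Kcnf1 window holds 0 and is 51.2% G or C. Kcnf1 fell 3.69-fold and Kcnc1 1.54-fold, and Kcna3 rose 1.51-fold.

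Of the 27 tested channel genes 6 share between 1 and 2355 exonic bases with a gene annotated on the opposite strand in GENCODE M21, namely Kcna6, Kcnd3, Kcng2, Kcnh3, Kcnh7 and Kcnq5. The largest overlap is that of Kcna6, and the Kcnh3 overlap with Mcrs1 is 1 base. Reads from the 2 strands cannot be told apart where the strand setting is not given, so values of the widely overlapping Kcna6 are uncertain.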

How the data were processed

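Bulb RNA of 4 libraries was analysed from a deposited table of 20032 gene symbols. Per the submitters' processing notes, the authors used TopHat (no version stated), Cufflinks 2.1.1 and the build GRCm38.p4. Annotation, settings and strand are not stated. The FPKM columns, per the file headers, are the authors' length- and depth-scaled values. The columns headed count hold a signal, the authors' scaled fragment counts: of the deposited values above 0, 98.7% to 98.9% are multiples (tolerance 0.05) of a library-specific unit. They served only as an alternative, on a log2 scale, and no count model was applied.

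Columns were mapped by the codes in the sample descriptions. DCKO and control were compared with limma 3.58.1 (R 4.3.3, trended variance, two-sided) on FPKM values after adding a pseudocount of 1 and taking log2. The 13434 genes averaging 1 FPKM or more were tested, with Benjamini-Hochberg adjustment and a threshold of 0.05. Described members that were called, and the most abundant of each subfamily, are named with values; 4 matched genes are not reported here and entered no count or sum of members. The members and lists were chosen with earlier results of these data known. Alternatives covered pseudocount, filter, scaling, variance trend, replicate block, each library left out and scaled counts. Coordinates are from GENCODE M21 (GRCm38).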

Additional observations from a re-analysis of the deposited data

How the results depend on the processing

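Over all alternatives no called channel gene changed sign. The median log2 change of the channel genes was -0.80 with a pseudocount of 0.1, -0.45 with a pseudocount of 5, -0.41 with no filter, -0.094 with a mean of at least 5 FPKM and -0.77 on scaled counts, and -0.78 to -0.56 with 1 library left out. With no filter 14 channel genes were called lower and 2 higher. With a mean of at least 5 FPKM, which leaves 12 to test, 6 were called lower and 4 higher. The 10 calls lost through that filter were all of genes that fell. Its mean takes in the DCKO libraries, which a fall lowers, so this does not show that the falls belong to genes of low level. With 1 library left out, 13 to 16 were lower and 3 to 4 higher, while over all tested genes 1030 to 1875 were lower and 806 to 1384 higher, against 1926 and 1747 with all 4 libraries. Over all genes 1434 were lower and 1188 higher with no filter, 1699 and 1372 with a mean of at least 5 FPKM, and 1418 and 1312 with the replicate block. Shares of all genes under the changed filters are not given, so the channel counts there are not set against a background. With no filter, Kcna3 (adjusted p = 0.0815), Kcnc4 (0.0825), Kcnh7 (0.0708), Kcnv1 (0.0589), Kcnab1 (0.0954), Kcnip2 (0.0552) and Kcnip3 (0.0952) lost their call. Kcnab1 also lost its call with a pseudocount of 5 (limma adjusted p = 0.05245), median-of-ratios scaling (0.05159), quantile normalization (0.0641) and the replicate block (0.0738). Without the variance trend, Kcnip3 (0.0603) and Kcna3 (0.05225) lost theirs, and Kcnip3 also did with a pseudocount of 5 (0.0508). Auxiliary subunits called higher numbered 1 with a pseudocount of 5 and with no filter, and 1 to 3 with 1 library left out. Anchoring partners numbered 2 to 3 lower and 1 to 2 higher with 1 library left out, settings added after the data were seen. With the replicate number as a replicate block, 14 channel genes were lower and 4 higher. Kcna3 (adjusted p = 0.0542), Kcnh7 (0.0657) and Kcnv1 (0.0579) lost their call and Kcna6 gained one (0.0483). The labels do not say whether the numbers pair the samples. The differences between replicates 1 and 2 of the 2 genotypes correlated at -0.0211 over genes. With only 1 such difference per genotype, this cannot decide it.

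Genes that were not called changed sign in places. With 1 library left out, the range was -0.48 to 0.29 for Kcna5, -0.071 to 0.12 for Kcnd1, -0.015 to 0.35 for Kcns2, -0.082 to 0.096 for Kcnab2 and -0.20 to 0.27 for Cntnap2. The cause of these changes was not tested. With 2 libraries per genotype, no single gene can reach an exact permutation p below 0.333.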

Other observations

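Genes whose proteins anchor Kv channels or link them to the membrane skeleton were mixed. Of 10 tested, 4 fell and 2 rose, against 14.3% and 13.0% of all tested genes, with a median log2 change of -0.09. The synaptic scaffold Dlg4 had the largest fall, from 138 and 147 FPKM in control bulbs to 65.4 and 66.1 in mutant bulbs (log2 change -1.10, limma adjusted p = 0.00168), and its relative Dlg2, which binds Kv1 channels, fell from 38.2 and 40.3 FPKM to 27.5 and 25.7 (-0.54, adjusted p = 0.00978). Lgi1, a secreted protein tied to Kv1 channels at synapses, fell by 0.44 (adjusted p = 0.0192), a call that did not hold without control replicate 1 (0.0725) or 2 (0.119). Its receptor gene Adam22 fell by 0.32 (adjusted p = 0.0309), a call that did not hold without any 1 of the libraries (0.0595 to 0.191). Adam23, another Lgi1 receptor, rose from 16.6 and 19.8 FPKM to 35.6 and 28.9 (0.79, adjusted p = 0.0173, and 0.0528 without DCKO replicate 1), and the axonal adhesion gene Cntn2 rose from 12.1 and 13.5 to 19.2 and 18.9 FPKM (0.54, adjusted p = 0.0125). Cntnap2, which gathers Kv1 channels beside the node, overlapped between groups (22.4 and 23.1 against 27.7 and 19.7 FPKM). Ank3, which anchors channels at the axon initial segment, did not pass, at 13.3 and 14.8 against 13.1 and 13.5 FPKM.

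Of the 4 channel genes that rose, Kcna3 and Kcnc4 lie in the same stretch of chromosome 3, from 107036169 to 107459552 (GRCm38), together with Kcna2 and Kcna10. Both calls were lost with no filter (limma adjusted p = 0.0815 and 0.0825) and without at least 1 library. Kcng1 and Kcnq3, whose calls were kept in each alternative, lie on chromosomes 2 and 15. The interval of 423 kb is bounded by Kcna3 and Kcnc4, so their rises are fixed by its choice and its count of calls is not set against the background. Between Kcna3 and Kcnc4 lie 5 other tested genes, of which AI504432 rose. It starts 1433 bases after Kcna3 on the same strand and went from 8.48 and 10.03 FPKM to 14.9 and 14.6 (log2 change 0.63, adjusted p = 0.0141). Lamtor5 (-0.19), Slc16a4 (0.28) and Rbm15 (-0.31) did not pass. Kcna2, given above, did not pass either. The interval was chosen after the values were seen, and whether its genes share a cause was not tested.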
